A study of Mus musculus with 34 samples.

Results

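The collagen genes of the mouse were followed through 34 Affymetrix arrays of skeletal muscle and liver from mice with too little or too much muscle glycogen synthase. A gene counted as a collagen when a probe set (a group of short array probes for one transcript) carried a single annotated symbol of the form Col, a type number, the letter a and a chain number. This took 58 probe sets for 36 genes, out of 12394 genes with a single symbol and 22690 probe sets in all. For each gene the probe set that was brightest over all arrays stood for the gene. By type, 6 of the genes were fibrillar collagens (types I, III and V), 8 were basement membrane collagens (types IV, XV and XVIII) and 22 were others. Col2a1, Col11a1 and Col11a2, which build cartilage fibrils, were counted with the others.

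Collagens are secreted proteins whose chains wind into a triple helix. Types I, III and V assemble into the fibrils that give tendon and the sheaths around muscle fibres their tensile strength. Type IV forms the sheet-like network of basement membranes, which surround every muscle fibre and every capillary, and its common form is built from the α1 and α2 chains encoded by Col4a1 and Col4a2. Type VI forms beaded filaments that link the muscle basement membrane to the fibrils outside it. In liver, fibrillar collagens are made mainly by stellate cells and portal fibroblasts, and endothelial cells there lie on little basement membrane.

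Mice labelled MGSKO lack muscle glycogen synthase (Gys1, the enzyme that lengthens glycogen chains in muscle) and are called knockout here. At 3 months they and wild-type mice gave anterior tibialis (4 knockout and 4 wild-type arrays), medial gastrocnemius (3 and 5) and liver (4 and 4). At 8 months, GSL30 mice, which overexpress muscle glycogen synthase, and wild-type mice gave medial gastrocnemius (5 and 5). The labels give a mixed C57BL6/129SV strain for the tibialis samples, name no promoter for the GSL30 transgene, and do not say whether each array was a separate animal, so p-values measure the spread between these arrays.

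Values are intensities on a linear scale, and each array had been scaled before deposit to the same trimmed mean. A log2 difference is mutant minus wild type in mean log2(intensity + 50), given with its standard error (SE), and it understates the change of dim genes. A probe set was tested when it lay above the 40th percentile of brightness in the arrays compared, which left 13576 in every comparison, and it passed at a Benjamini-Hochberg adjusted p under 0.05 in limma. Of the 36 collagen genes, 26 were tested in at least one mutant comparison. The 10 that were too dim in all of them were Col2a1, Col4a4, Col9a2, Col9a3, Col10a1, Col17a1, Col19a1, Col20a1, Col22a1 and Col26a1. Intensities of different genes come from different probes and are not compared with each other.

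The arrays differed in ways that touch the collagen results. Gys1 was at 34.2 to 72.5 in knockout tibialis against 8183.7 to 9958.2 in wild type, and at 7895.5 to 10404.4 in GSL30 gastrocnemius against 5840 to 7184.8. Transcripts of hepatocytes, the main cell of the liver, were present in gastrocnemius. The summed intensity of 11 hepatocyte markers was 2596.8 to 4170.3 in the tibialis arrays, 46937 to 652640 in gastrocnemius at 3 months, 8583 to 30845 in gastrocnemius at 8 months and 501680 to 644620 in liver. A large part of the 8-month sums came from Cyp2e1 alone (mean 9145 in GSL30 and 12000 in wild type), so they say little about the other markers. Wild-type gastrocnemius replicate 2 at 3 months stood apart, with the highest hepatocyte sum of any array and a sum of 1322300 over 7 muscle fibre markers, against 273350 to 406270 in the other 7 gastrocnemius arrays of that age. Results that rest on gastrocnemius are given with and without 6 arrays that were high in liver transcripts for their age (at 3 months the 4 highest, wild-type replicates 1, 2 and 4 and knockout replicate 1, and at 8 months the 2 highest, wild-type replicates 2 and 5) where the call depends on them.

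In GSL30 gastrocnemius, 2 of 24 tested collagen genes passed, and both were lower: Col4a1 and Col4a2. Over all probe sets, 4.31% passed in that comparison and 2.2% passed as lower. In knockout muscle the same chains lay above wild type in every array but did not pass. No collagen passed in knockout tibialis (0 of 23, where 1.4% of all probe sets passed), knockout gastrocnemius (0 of 21, against 0.147%) or knockout liver (0 of 17, against 0.00737%). At an unadjusted p under 0.05 in the same limma fits, the counts were 5, 4 and 2 collagen genes, or 4 of 24 in GSL30 gastrocnemius, and the shares of all probe sets were 15%, 11.4%, 8.33% and 21.4%.

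Col4a1 and Col4a2 are neighbours on opposite strands that run away from each other from overlapping 5′ ends. Their promoter windows are shown here because the differences of both genes had the same sign in each of the 3 mutant muscle comparisons. In RefSeq on GRCm38.p6, the windows from 250 bases before to 50 bases after each start site lie at chr8:11312777-11313076 on the minus strand for Col4a1 and chr8:11312555-11312854 on the plus strand for Col4a2. The start sites are 21 bases apart and the windows share 78 bases (chr8:11312777-11312854). Each annotated start site lies inside the other gene, so the bases before the start of one gene are also annotated as part of the other. Capitals mark matches on either strand to CCAAT (the core bound by the factor NF-Y) and to GGGCGG (the core bound by Sp1 and related factors). The Col4a1 window, 5′ to 3′ on its own strand, is the first and the Col4a2 window the second.
Col4a1: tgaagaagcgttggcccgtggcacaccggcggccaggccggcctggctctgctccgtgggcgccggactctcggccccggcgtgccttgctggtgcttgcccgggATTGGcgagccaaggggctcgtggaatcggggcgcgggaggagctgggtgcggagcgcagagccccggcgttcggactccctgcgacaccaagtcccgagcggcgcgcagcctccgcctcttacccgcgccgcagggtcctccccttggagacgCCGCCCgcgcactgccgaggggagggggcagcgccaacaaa
Col4a2: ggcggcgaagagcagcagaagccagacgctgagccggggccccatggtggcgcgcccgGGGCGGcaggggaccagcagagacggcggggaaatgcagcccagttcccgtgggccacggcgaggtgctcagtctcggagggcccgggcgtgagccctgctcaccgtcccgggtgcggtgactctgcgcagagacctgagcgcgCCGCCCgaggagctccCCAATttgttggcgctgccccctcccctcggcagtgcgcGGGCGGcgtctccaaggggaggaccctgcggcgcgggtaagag
The Col4a1 window held 1 match to each motif and the Col4a2 window held 1 CCAAT and 3 GGGCGG. One GGGCGG lies in the bases that both windows share. For comparison, CCAAT occurs in 37.4% of 32851 mouse promoter windows of this length, GGGCGG in 35.7% and both in 12.8%. Windows were found for 27 of the 36 collagen genes (30 windows), of which 12 held CCAAT, 17 held GGGCGG and 10 held both. Col4a5 and Col4a6 also lie on opposite strands, with start sites 1343 bases apart.

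In 8-month gastrocnemius, the Col4a1 intensity was 7534.2, 7560.3, 7156.2, 6191.6 and 8217.8 in wild type and 5121.4, 5193.7, 4656.9, 4983.1 and 4387.7 in GSL30. Every GSL30 array lay below every wild-type array. Mean Col4a1 fell by 33.6%, a log2 difference of -0.58 (SE 0.11, 95% interval -0.82 to -0.34, limma adjusted p = 0.0168). A second Col4a1 probe set, 1426348_at, also passed, at -0.52 (SE 0.13, adjusted p = 0.0408). Col4a2 was at 4949.1, 4429.6, 4807.6, 4100 and 5261.8 in wild type and 2623.9, 3644.4, 3102.8, 2979.1 and 3020.8 in GSL30. Again the groups did not overlap, and mean Col4a2 fell by 34.7% (log2 difference -0.61, SE 0.12, interval -0.87 to -0.35, limma adjusted p = 0.0185). The hepatocyte sum was 8583 to 14722 in the GSL30 arrays and 14864 to 30845 in their wild type, without overlap, and its part in these values was not tested. Of 7 tested hepatocyte markers, all were negative, and Alb and Ttr passed as lower. Cyp2e1, which made up a large part of the sum, did not pass and its groups overlapped (limma adjusted p = 0.327). Both calls ended without wild-type replicates 2 and 5, the pair highest in liver transcripts at that age (Col4a1 -0.51 with adjusted p = 0.0837, Col4a2 -0.58 with 0.0767), and with the hepatocyte marker mean as a covariate (-0.53 with 0.217, and -0.67 with 0.182). That mean, on the log2 scale, was 8.05 to 8.66 in GSL30 and 8.81 to 10.51 in wild type. Because it did not overlap, covariate and genotype cannot be told apart well, and the calls lost with the covariate decide nothing. This limit does not apply to the fit without wild-type replicates 2 and 5, which used no covariate.

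In knockout tibialis, Col4a1 was at 11264.1, 11992, 11339.2 and 11001.5, against 9317.6, 8537.8, 9824.4 and 7270 in wild type. All knockout arrays were above all wild-type arrays, with a log2 difference of 0.39 (SE 0.12, adjusted p = 0.166). Col4a2 was at 5688.5, 6722.5, 5648.2 and 4829.2 in the knockout and 4088, 4684.2, 3790 and 3289.6 in wild type, also without overlap (0.53, SE 0.14, adjusted p = 0.129). In knockout gastrocnemius, Col4a1 was at 6239.6, 6690.9 and 6251.9, against 4813.6, 3517.3, 5235.5, 3824.9 and 5674.2 in wild type. Col4a2 was at 5037.3, 4313.2 and 4153, against 3359.1, 2347.6, 2923, 3358 and 3733.9. Neither gene's groups overlapped there, and the log2 differences were 0.49 (SE 0.18, adjusted p = 0.365) and 0.52 (SE 0.17, adjusted p = 0.333). Without the liver-high arrays they were 0.24 for Col4a1 (adjusted p = 0.554) and 0.35 for Col4a2 (adjusted p = 0.486).

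In liver both chains were above the brightness filter and overlapped between genotypes. Col4a1 was at 469, 418.2, 423 and 584.1 in wild type and 499.3, 386.3, 363.3 and 600.9 in the knockout (log2 difference -0.04, SE 0.17, interval -0.42 to 0.33). Col4a2 was at 596.2, 586.5, 334.3 and 557.8 in wild type and 599.3, 468.7, 467.7 and 436.5 in the knockout (-0.04, SE 0.18, interval -0.45 to 0.36).

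**Figure D1:**
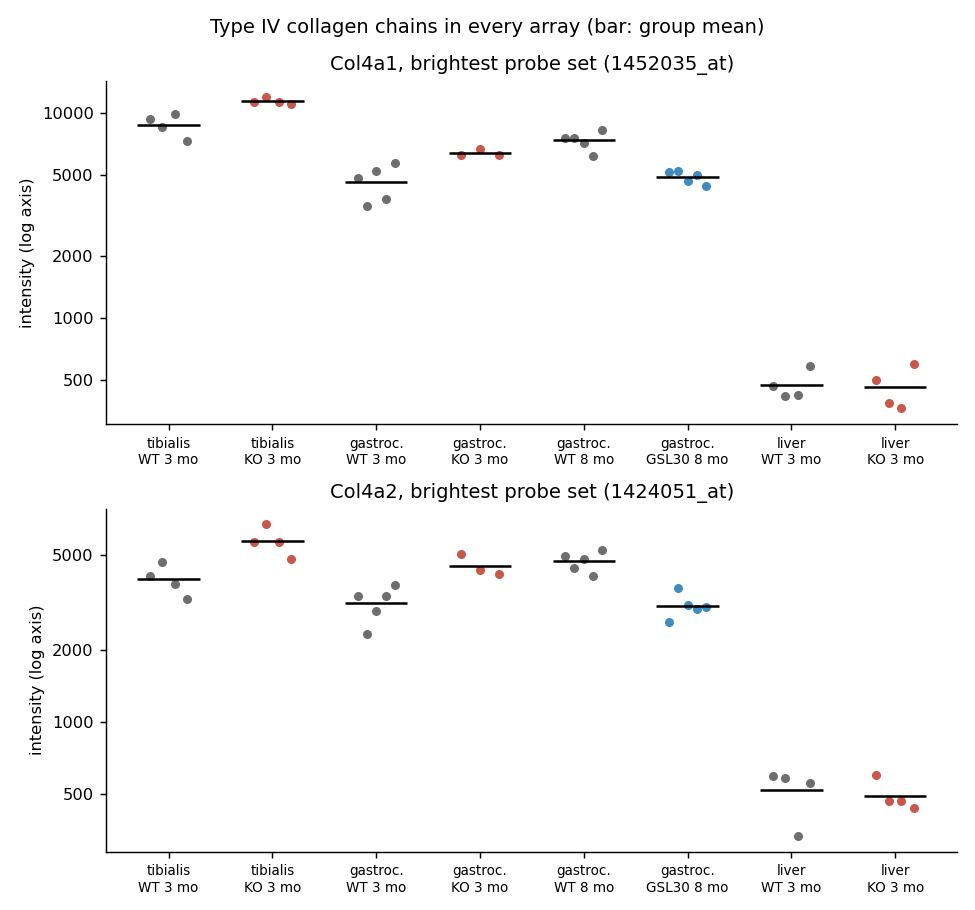
Intensity of Col4a1 (top) and Col4a2 (bottom) in each of the 34 arrays on log axes, by group, with a bar at each group mean; grey is wild type, red knockout (KO) and blue GSL30. Knockout muscle sits above its wild type, GSL30 sits below its wild type, and liver lies near 500 for both genes in both genotypes.

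The effects of the mutations were also compared with each other. In gastrocnemius, the GSL30 effect minus the knockout effect was -1.07 for Col4a1 (SE 0.19, interval -1.48 to -0.66, limma adjusted p = 0.00545) and -1.13 for Col4a2 (SE 0.20, interval -1.54 to -0.72, adjusted p = 0.00422). These were the only collagen genes of 22 tested that passed for this difference, where 2.3% of all probe sets passed and 1.65% passed as lower. At an unadjusted p under 0.05 the count was 4 of 22, against 17.7%. The GSL30 and knockout arrays came with wild types of different ages, so mutation and age cannot be told apart in it. Without the 6 liver-high arrays the values were -0.75 (adjusted p = 0.136) and -0.94 (adjusted p = 0.118), and neither passed. With the hepatocyte mean as a covariate both passed (-1.03 with adjusted p = 0.00262, and -1.11 with 0.00398). That covariate did not overlap between GSL30 and its wild type, so the calls kept with it decide nothing. The knockout effect in gastrocnemius minus that in tibialis was 0.10 for Col4a1 (SE 0.21, interval -0.35 to 0.55) and 0.00 for Col4a2 (SE 0.22, interval -0.48 to 0.47), and no collagen passed among 21 tested (0.0147% of all probe sets did). The effect in liver minus the mean effect in muscle was -0.48 for Col4a1 (SE 0.19, adjusted p = 0.36) and -0.57 for Col4a2 (SE 0.21, adjusted p = 0.295). No collagen passed for that difference among 22 tested, against 0.685% of all probe sets, and at an unadjusted p under 0.05 the counts were 1 and 4 collagen genes in these last comparisons, against 10% and 10.4%.

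Markers of endothelial cells, which lie on basement membrane, differed between genotypes in the same direction as Col4a1 and Col4a2. Summed over 9 endothelial markers, the intensity was 12338 to 13762 in GSL30 gastrocnemius against 18247 to 21686 in its wild type, 20379 to 24548 in knockout tibialis against 14660 to 18693, and 18579 to 21031 in knockout gastrocnemius against 12144 to 15444. These ranges did not overlap in any of the 3 muscle comparisons. All 9 endothelial markers had a negative difference in GSL30 gastrocnemius (median -0.57). There 4 passed as lower, against 2.2% of all probe sets: Pecam1 and Cdh5, adhesion proteins of endothelial junctions, Esam, and the receptor Tie1. In knockout tibialis all 9 were positive (median 0.45) and in knockout gastrocnemius 8 of 9 were (median 0.48), with none past the threshold. Over all probe sets tested, 56.7% and 56.5% were positive in these comparisons, and 53.5% in GSL30. Markers of smooth muscle and pericytes, which wrap vessels, ran from 19990 to 24740 in summed intensity in GSL30 against 29530 to 32090, with 4 of 6 tested passing as lower (Acta2, Tagln, Myh11 and Pdgfrb). Of the 6, 5 were negative and 1 was positive, Smtn at 0.45 (SE 0.16, adjusted p = 0.119). Their sum was 31530 to 35190 in knockout gastrocnemius against 22890 to 28210, apart from its wild type, and 35610 to 44160 in knockout tibialis against 32460 to 40950, with overlap. Markers of Schwann cells, which wrap nerve fibres and also lie on basement membrane, summed to 7066 to 10390 in GSL30 against 10480 to 15900. Most of that sum came from Pmp22 and Mbp (means 5172 and 2502 in GSL30). Mbp, a myelin protein, was the 1 of 3 tested that passed as lower (-0.83, SE 0.17, adjusted p = 0.0204). Sox10 was close to wild type (-0.01, SE 0.12, adjusted p = 0.961), as was S100b, too dim to test (mean 188.3 against 188). Their sum was 12310 to 13870 in knockout gastrocnemius against 7638 to 9562, also apart, and 5926 to 8451 in knockout tibialis against 6378 to 12300, with overlap. Without wild-type replicates 2 and 5, Cdh5, Tie1, Tagln and Myh11 still passed as lower in GSL30 (adjusted p from 0.0118 to 0.0431), while Pecam1, Esam, Acta2, Pdgfrb and Mbp did not (0.0544 to 0.0876). With the hepatocyte mean as a covariate none of these markers passed, and the lowest adjusted p was 0.0969, for Myh11. The covariate did not overlap between GSL30 and its wild type, so the calls lost with it decide nothing. No marker of these lists was at 0 in every array of a group. Of 7 muscle fibre markers, 6 were positive in GSL30 (median 0.22), 2 in knockout tibialis (median -0.04) and 0 in knockout gastrocnemius (median -0.26). All 3 adipocyte markers were negative in GSL30 (median -0.63), while 1 of 2 tested was positive in knockout tibialis and 2 of 3 in knockout gastrocnemius. No fibre or adipocyte marker passed in these comparisons. In liver the endothelial sum was 4936.1 to 5539.2 in the knockout and 5490.2 to 5927.8 in wild type. The part of these markers in the Col4a1 and Col4a2 differences was not tested, and in bulk tissue fewer cells of a type and less RNA per cell cannot be told apart.

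**Figure D2:**
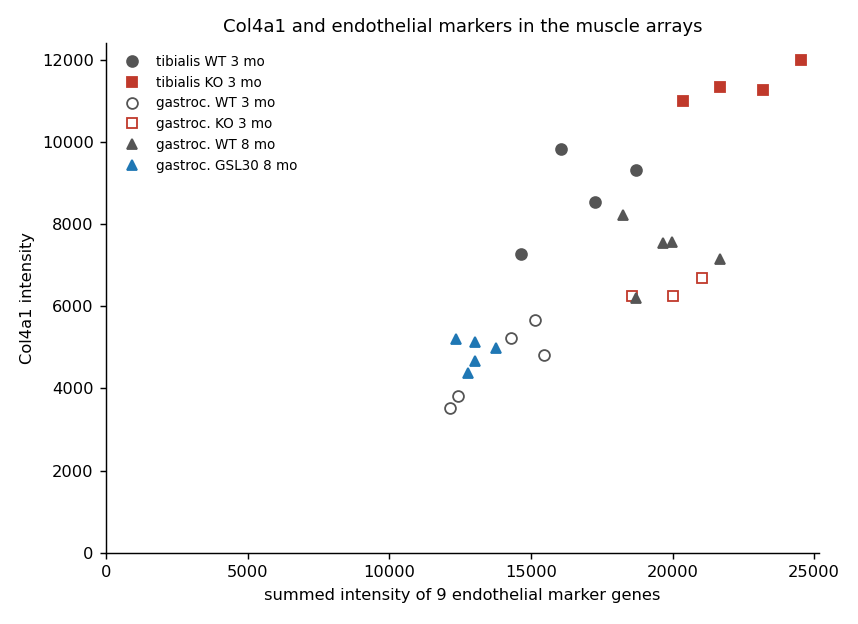
Col4a1 intensity against the summed intensity of 9 endothelial markers in the 26 muscle arrays, with groups by symbol and colour. The GSL30 arrays lie at 12338 to 13762 on the horizontal axis and below their wild type (grey triangles) on both axes, and each knockout group lies above its wild type on both.

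Of the other type IV chains, Col4a3, Col4a5 and Col4a6 encode chains that form networks of restricted tissue distribution. Col4a5 differences in muscle were -0.18 in knockout tibialis, -0.15 in knockout gastrocnemius and -0.22 in GSL30, with overlapping groups and adjusted p from 0.464 to 0.694. A second Col4a5 probe set, 1425476_at, gave -0.56 in GSL30 (SE 0.18, adjusted p = 0.0881), at a mean of 228.9 against 356.5 with overlapping groups. In the knockouts that probe set was under the brightness filter and not tested, at 0.38 in tibialis and 0.05 in gastrocnemius. Col4a6 was at 305.8, 335.2 and 430.2 in knockout gastrocnemius, all below the wild-type arrays at 492.2, 749.5, 493.9, 457.3 and 441.6 (-0.49, SE 0.19, adjusted p = 0.398), and its groups overlapped in the other comparisons. Col4a3 was tested in GSL30 gastrocnemius alone, at -0.19 (SE 0.20, adjusted p = 0.595). Whether these chains differ in response from Col4a1 and Col4a2 was not tested.

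Col15a1 encodes type XV collagen, which sits on the outer face of muscle and capillary basement membranes. Its intensity in knockout gastrocnemius was 719.8, 723.9 and 655.5, above wild type at 650.3, 323.9, 631.1, 551.4 and 582.3 in every array, by 0.36 (SE 0.21, adjusted p = 0.526). In knockout tibialis it was at 1395.5 to 1926 against 829.9 to 1611.7 (0.31, SE 0.20, adjusted p = 0.508), and in GSL30 at 771.3 to 1044.3 against 678.7 to 1278.5 (-0.10, SE 0.16, adjusted p = 0.76), so these groups overlapped.

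Counted by separation alone, 3 of 23 tested collagen genes lay above wild type without overlap in knockout tibialis (Col4a1, Col4a2 and Col6a3, where 5.2% of all probe sets did) and 3 of 21 in knockout gastrocnemius (Col4a1, Col4a2 and Col15a1, against 7.26%). In knockout gastrocnemius 1 lay below (Col4a6, against 2.72%). In knockout liver 1 of 17 lay above (Col1a2, against 2.76%), and in GSL30 3 of 24 lay below (Col4a1, Col4a2 and Col5a3, against 3.59%). The median difference of the 8 basement membrane genes was 0.34 in knockout tibialis, -0.04 in knockout gastrocnemius, 0.02 in knockout liver and -0.21 in GSL30, beside medians of 0.04, 0.05, 0.02 and 0.03 over all probe sets tested.

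Col18a1, whose protein carries the fragment endostatin, was brightest in liver and in the gastrocnemius arrays with most liver transcripts. It was at 13062.1, 12382.7, 13250 and 13106.9 in wild-type liver and at 250.7, 241.6, 404.5 and 437.9 in wild-type tibialis. In wild-type gastrocnemius at 3 months it ran at 2405.2, 2458.6, 980.5, 3390.9 and 517.4, in arrays whose hepatocyte sums were 189420, 652640, 93313, 308290 and 48942. The 3 arrays with the highest hepatocyte sums were the 3 with the most Col18a1. Knockout gastrocnemius was at 721.6, 638.4 and 355.4, with hepatocyte sums of 145590, 69196 and 46937. The log2 difference there was -1.46 (SE 0.56, interval -2.72 to -0.21, adjusted p = 0.389), -0.53 without the liver-high arrays (adjusted p = 0.608) and -0.60 with the hepatocyte mean as a covariate (adjusted p = 0.499). In liver itself Col18a1 was at 12798.5 to 14384.3 in the knockout, a difference of 0.04 (SE 0.10, interval -0.18 to 0.26). The suffix of this probe set, 1418237_s_at, marks probes that can match several transcripts. The second Col18a1 probe set, 1426955_at, gave -0.71 in knockout gastrocnemius (SE 0.37, adjusted p = 0.496). In GSL30 its mean was 422 (SD 171.2) against 759.2 (SD 225.6) in wild type, and that of the brighter probe set 531.7 against 710.4. In knockout tibialis the probe sets went opposite ways, at 630.4 against 776.3 for the second and 443.5 against 333.7 for the brighter. The brighter probe set passed in neither comparison.

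**Figure D3:**
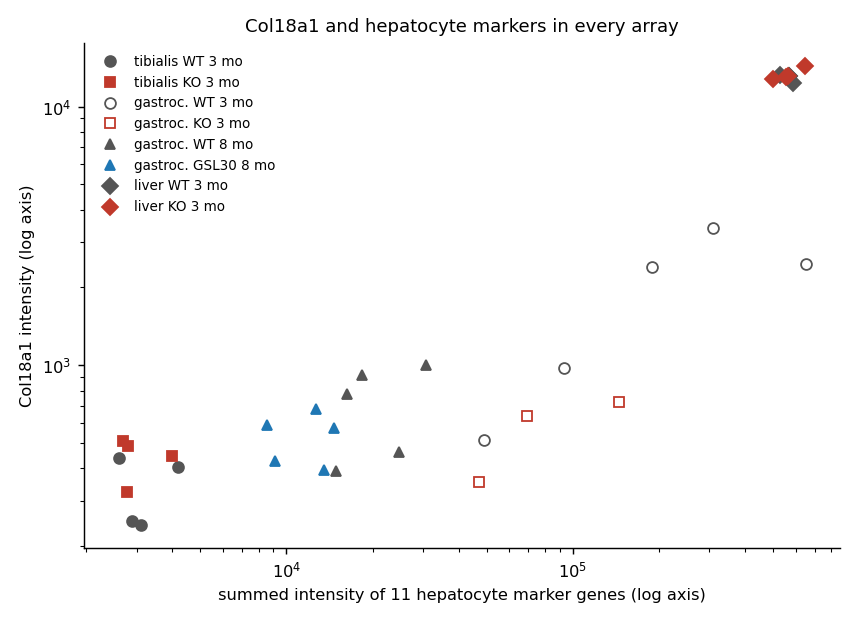
Col18a1 intensity against the summed intensity of 11 hepatocyte markers in all 34 arrays, both on log axes, with groups by symbol and colour. The liver arrays lie at the upper right, and the 3 wild-type gastrocnemius arrays of 3 months with hepatocyte sums of 189420, 308290 and 652640 lie closest to them.

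None of the fibrillar collagens passed in a mutant comparison. Col1a1 and Col1a2 encode the chains of type I collagen, the main protein of tendon. In tibialis, Col1a1 was at 4058.1, 4578, 4694.9 and 3602.7 in the knockout and 4737.2, 6935.4, 6274 and 3937.5 in wild type. Col1a2 was at 10712.7, 11554.6, 12655.5 and 11245 against 11464.1, 17630.5, 16208.9 and 10279.6. The groups overlapped for both chains, with differences of -0.34 (SE 0.18, adjusted p = 0.421) and -0.23 (SE 0.18, adjusted p = 0.574). Col3a1, the type III chain found with type I in the sheaths of muscle, lay the other way at 12137.1, 15108.6, 16369.7 and 14688.1 against 11390.7, 12528.6, 13034.5 and 10573.4 (0.29, SE 0.13, adjusted p = 0.322). Thus 4 of the 6 fibrillar genes were positive and both type I chains were negative in knockout tibialis, with a median of 0.14.

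In knockout gastrocnemius the fibrillar genes were close to wild type, 3 positive and 3 negative around a median of -0.03. Col1a1 was at 1575.4, 1409.7 and 1686.5 against 1674.4, 731.2, 2042.2, 1437.8 and 1691.1, and Col1a2 at 5077.6, 4691.2 and 6050 against 5250.4, 5046.3, 6615.2, 5322 and 5513.9. The differences were 0.11 (interval -0.54 to 0.76) and -0.07 (interval -0.40 to 0.25). For Col3a1 the values were 4358.5, 3955.9 and 3636.3 against 4696, 3337.4, 5347.2, 3508.5 and 4676.8 (-0.09, interval -0.50 to 0.32).

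In GSL30 gastrocnemius all 6 fibrillar genes had a negative difference at their brightest probe set, also under both other scalings of the arrays, and none passed. Their median was -0.24, beside 0.03 over all probe sets tested, of which 53.5% were positive. The further probe set 1434479_at of Col5a1 had a mean of 1264 in GSL30 and 1257 in wild type. The dimmer 1425984_at of Col5a3 had 119.1 and 70.56. All remaining further probe sets of the fibrillar genes had lower means in GSL30. Col1a1 was at 4272.9, 2980, 3348.1, 2809.4 and 3327.1 in GSL30 and 3308.9, 6569.7, 6106.4, 2888.3 and 2352.5 in wild type. The wild-type values of Col1a1 spanned more than the GSL30 values on both sides, and the difference was -0.23 (SE 0.27, interval -0.81 to 0.34). Col3a1 was at 7635.5, 12986.6, 9914.1, 8596.3 and 10564.6 against 9523, 14686.6, 13968.2, 6268.9 and 10162.7 (-0.10, SE 0.22). Type V collagen helps to set fibril diameter, and its chain Col5a3 was at 1228, 1223.4, 893.9, 1028.3 and 1240.6 in GSL30, below 1615.1, 1831.8, 1661.2, 1250.2 and 1267.8 in wild type (-0.42, SE 0.14, adjusted p = 0.115). For Col5a2 the difference was -0.37 (SE 0.18, adjusted p = 0.257) and for Col5a1 -0.24 (SE 0.16, adjusted p = 0.409), with overlapping groups. With the hepatocyte mean as a covariate the fibrillar median was 0.06. The covariate did not overlap between GSL30 and its wild type, so that fit decides nothing.

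In liver, Col1a2 was higher in every knockout array, at 726.2, 798.2, 767.9 and 924 against 586.6, 517.2, 582.3 and 594.8. The difference was 0.46 (SE 0.11, interval 0.21 to 0.71) and did not pass (adjusted p = 0.317). The partner chain Col1a1 was at 11.3 to 27.5 in the knockout and 14.2 to 36.5 in wild-type liver, below the brightness needed for a test. The other type I probe sets were under that filter too and not tested: 1455494_at of Col1a1 had a mean of 163.3 in the knockout and 110.9 in wild type, and 1423110_at of Col1a2 had 24.75 and 39.5. Col3a1 was at 534.4, 253.9, 203.7 and 231.9 against 277.1, 294, 353.2 and 317.3 in liver, with 1 knockout array above and the other 3 below all wild-type arrays (-0.10, SE 0.23). Col5a1 was at 366.6, 347.7, 368.2 and 447.4 against 373.6, 298.8, 281.2 and 271.1 (0.28, SE 0.13, adjusted p = 0.6), and its further probe set 1434479_at gave -0.14 (SE 0.10). The liver effect on Col1a2 minus the mean muscle effect was 0.61 (SE 0.18, adjusted p = 0.145).

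The Col1a2 promoter window is printed because Col1a2 was the collagen whose genotypes lay apart in liver. It lies at chr6:4505368-4505667 on the plus strand of GRCm38.p6 (RefSeq), with the same motifs in capitals, and held 2 matches to CCAAT and 2 to GGGCGG.
Col1a2: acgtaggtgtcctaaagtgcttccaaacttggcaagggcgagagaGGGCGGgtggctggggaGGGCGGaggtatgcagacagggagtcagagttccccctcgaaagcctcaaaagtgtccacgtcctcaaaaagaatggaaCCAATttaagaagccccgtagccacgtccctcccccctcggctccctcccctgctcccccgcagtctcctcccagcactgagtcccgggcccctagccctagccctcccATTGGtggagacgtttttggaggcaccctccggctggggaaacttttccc
By contrast, the Col3a1 window held neither motif. A match is a run of letters only, and says nothing about binding in these tissues.

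**Figure D4:**
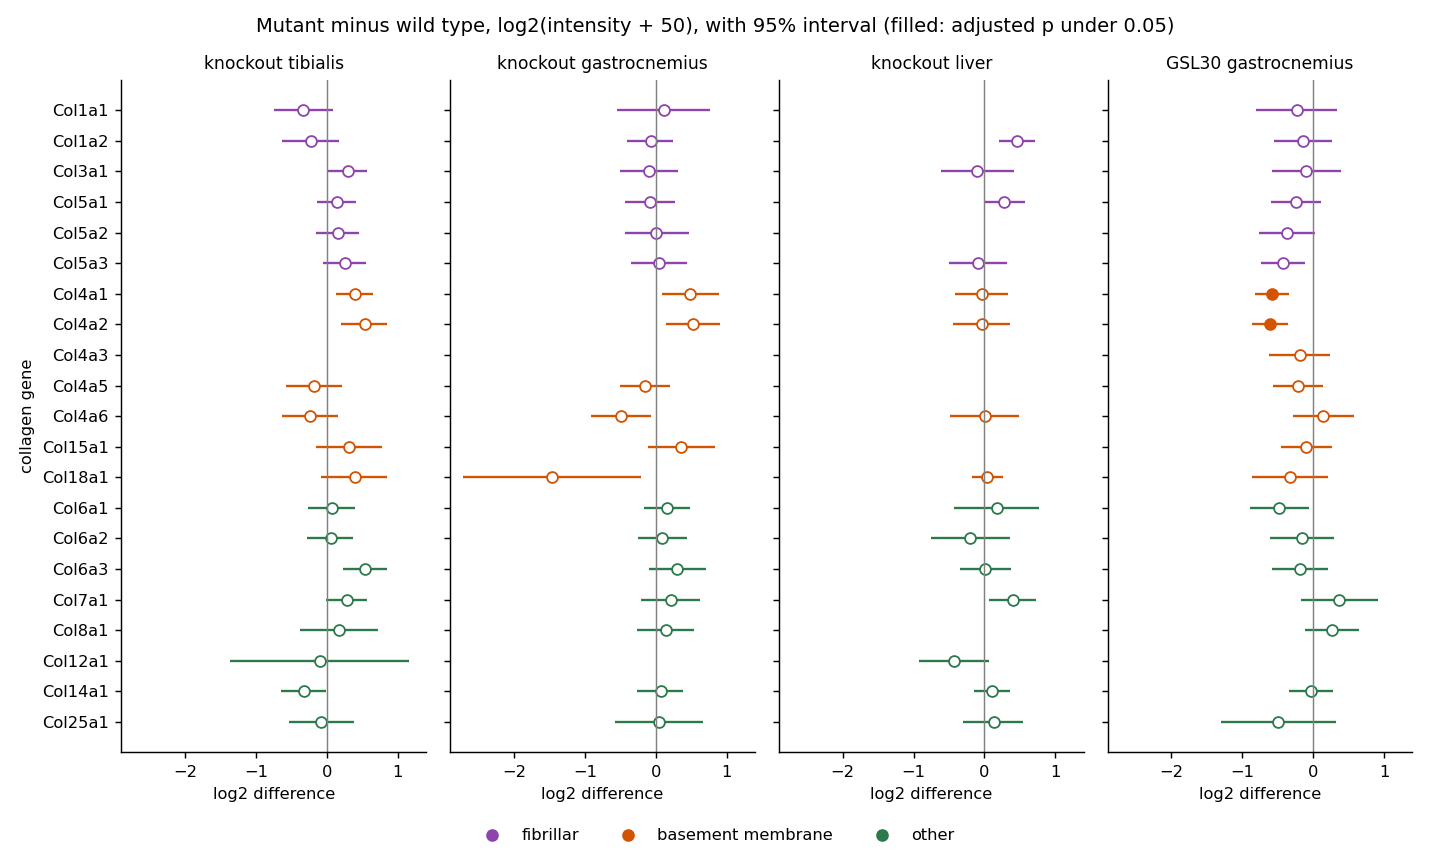
Log2 difference (mutant minus wild type, log2(intensity + 50)) of the 21 collagen genes described here, with 95% intervals, in the 4 mutant comparisons; colour marks the type, a filled point passed the threshold, and genes too dim to test have no point. Only Col4a1 and Col4a2 in GSL30 gastrocnemius are filled, and the same genes lie to the right of 0 in both knockout muscles.

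Type VI collagen is built from the products of Col6a1, Col6a2 and Col6a3, whose loss causes muscle disease. In knockout tibialis Col6a3 was at 3360.8, 5217.5, 4288.3 and 4635.4, above wild type at 2863.7, 2929.2, 3173.2 and 2924.8 in every array, by 0.53 (SE 0.14, adjusted p = 0.116). The other chains overlapped, with Col6a1 at 3869.2 to 5291.9 against 3494.7 to 5152.9 (0.07, SE 0.15) and Col6a2 at 5371.1 to 6885.7 against 4470.1 to 6588.6 (0.05, SE 0.15). So the wild-type and knockout tibialis groups were apart for 1 of the 3 chains. In GSL30 gastrocnemius, Col6a1 was at 2858.2, 3926.8, 2942.4, 3113.3 and 2965.4 against 3511.3, 5656.7, 5547, 2897.8 and 5117.7 (-0.48, SE 0.19, adjusted p = 0.173). Col6a2 (-0.16, SE 0.21) and Col6a3 (-0.18, SE 0.18) had smaller differences and overlapping groups. In knockout gastrocnemius the 3 chains lay between 0.09 and 0.30 with adjusted p of 0.528 or more, and in liver between -0.20 and 0.17 with adjusted p of 0.862 or more.

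The remaining collagens that were bright enough were mostly close to wild type. Col14a1, a fibril-associated type that coats type I fibrils, was at 784.8, 775.9, 957 and 914.6 in knockout tibialis against 955.1, 1003.9, 1404.9 and 1042.3 in wild type, nearly separated, at -0.33 (SE 0.14, adjusted p = 0.315). It differed by 0.07, 0.10 and -0.03 in the other mutant comparisons. Col7a1, the anchoring fibril chain of skin, was at 371.4, 399.4, 367.1 and 457.8 in knockout liver against 242.1, 291.1, 248.7 and 395 (0.40, SE 0.15, adjusted p = 0.514), with 1 wild-type array inside the knockout range. Col8a1, a chain of short-chain networks in vessel walls, lay at 0.17, 0.14 and 0.26 in the muscle comparisons with adjusted p from 0.417 to 0.78. Col12a1 was spread from 71.1 to 1067.7 among the wild-type tibialis arrays alone, so that its difference of -0.10 there has an interval of -1.37 to 1.16. Col25a1 ranged from 90 to 526.8 in GSL30 and 273.6 to 806.3 in its wild type (-0.49, SE 0.37, adjusted p = 0.471). A second probe set of Col9a1, a cartilage chain, gave 0.70 in GSL30 (1428571_at, SE 0.19, adjusted p = 0.0596), against 0.21 for its brighter one. The mean of 1428571_at was also above wild type in knockout tibialis (429.6 against 337.3) and knockout gastrocnemius (361.3 against 188). In knockout liver it was 154.2 against 142. Over all 22 other collagens the median difference was 0.08, 0.07, 0.01 and 0.02 in knockout tibialis, knockout gastrocnemius, knockout liver and GSL30. Of the 10 genes tested in no mutant comparison, Col9a2 was at 5.1 to 20.6 over all arrays, and the values of Col20a1 reached 464.5 in 1 array.

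The proteins that process collagen were counted from lists of their genes. In GSL30 gastrocnemius, where 2.11% of all probe sets passed as higher and 2.2% as lower, 8 genes of propeptide cleavage and cross-linking were tested, of which Tgm2, a transglutaminase, passed as higher (0.65, SE 0.13, adjusted p = 0.0187) and 2 passed as lower. These were Lox, the lysyl oxidase that starts collagen cross-links (-0.59, SE 0.15, adjusted p = 0.0489), and Pcolce2, which aids removal of the C-terminal propeptide (-0.67, SE 0.16, adjusted p = 0.0345). Of 7 fibril-binding proteoglycans, all had negative differences and 2 passed as lower: Prelp (-0.93, SE 0.20, adjusted p = 0.0272), which also binds basement membrane, and fibromodulin, Fmod (-0.64, SE 0.17, adjusted p = 0.0497). Of 13 genes of collagen breakdown, Timp3, a matrix-bound inhibitor of the proteases, passed as lower (-0.54, SE 0.12, adjusted p = 0.0307). None of these 6 calls held without wild-type replicates 2 and 5 (adjusted p from 0.0735 to 0.15) or with the hepatocyte mean as a covariate (0.209 to 0.327). The covariate did not overlap between GSL30 and its wild type, so the calls lost with it decide nothing. When 1 array was left out, the call of Tgm2 was lost in 1 of 10 cases, that of Prelp in 6, those of Pcolce2 and Fmod in 7, that of Timp3 in 8 and that of Lox in 9.

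Genes for the other proteins of basement membranes (laminins, nidogens, perlecan, agrin and their like) sat with Col4a1 and Col4a2 in sign but did not pass. In GSL30 gastrocnemius 10 of 11 were negative (median -0.40), led by Lamc1 (-0.42, adjusted p = 0.0517) and Lama4 (-0.82, adjusted p = 0.0562). In knockout tibialis 9 of 11 were positive (median 0.14), and in knockout gastrocnemius all 10 tested were (median 0.28, with Agrn at 0.74 and adjusted p = 0.263). In knockout liver 1 of 6 tested was positive (median -0.08). None of 12 tested genes of collagen modification and folding, 4 collagen receptors or 10 genes of TGF-β signalling passed in GSL30 gastrocnemius.

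In knockout tibialis 1 gene of these lists passed, Fmod, which fell by 0.91 on the log2 scale (SE 0.16, adjusted p = 0.0293), in a comparison where 1.4% of all probe sets passed. That call was lost for 7 of the 8 arrays when 1 was left out (adjusted p up to 0.104), and held without wild-type replicate 4. The other lists held none there (0 of 12 modification and folding, 0 of 8 cleavage and cross-linking, 0 of 12 breakdown, 0 of 11 basement membrane, 0 of 4 receptors and 0 of 10 TGF-β genes). No gene of any of the 7 lists passed in knockout gastrocnemius (11, 8, 10, 8, 10, 4 and 10 tested, in the order modification, cleavage, breakdown, proteoglycans, basement membrane, receptors and TGF-β) or in knockout liver (10, 5, 7, 5, 6, 3 and 8 tested). The smallest p among them belonged to Timp3 in knockout gastrocnemius (0.83, adjusted p = 0.196), and to P3h1, a prolyl hydroxylase of collagen chains, in knockout liver (0.66, adjusted p = 0.256).

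Markers of tendon cells and fibroblasts, the main makers of fibrillar collagen, were lower in GSL30 gastrocnemius. Their summed intensity over 9 genes was 13610 to 17230 in GSL30 and 19790 to 25590 in its wild type. Where 2.2% of all probe sets passed as lower, 4 of 7 tested markers did (Thbs4, Comp, Pdgfra and Dpt). Of these, Thbs4 alone passed without wild-type replicates 2 and 5 (adjusted p = 0.037), and none passed with the hepatocyte mean as a covariate (0.155 to 0.404). The covariate did not overlap between GSL30 and its wild type, so the calls lost with it decide nothing. In knockout tibialis the sum was 13760 to 16090 against 16190 to 21700, with 5 of 6 tested negative and none past the threshold. Knockout gastrocnemius overlapped with its wild type, at 14680 to 15710 against 12600 to 17330. No marker of that list was at 0 in every array of a group, and its part in the fibrillar collagen values was not tested.

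The wild-type groups show where the collagen genes are expressed, but each tissue and age also has its own code in the sample titles, so tissue or age and whatever that code stands for cannot be told apart. Compared with tibialis at 3 months, 16 of 21 tested collagen genes were lower and 1 was higher in liver at adjusted p under 0.05, where 41.1% of all probe sets were lower and 28.2% higher. All 6 fibrillar genes passed as lower. Col1a1 was at 15.1, 36.5, 14.2 and 17.2 in liver (log2 difference -6.26, SE 0.19, limma adjusted p = 5.54e-10). Those liver values lie below the 50 added before taking logs, so the size of this difference depends on that choice. A second Col1a1 probe set, 1455494_at, gave -3.58 (SE 0.17, adjusted p = 1.57e-08), at a mean of 110.9 in liver and 1878 in tibialis. Col3a1 was at 277.1 to 353.2 (-5.05, SE 0.12, adjusted p = 1.02e-10). Col4a1 (-4.07, SE 0.14) and Col4a2 (-2.84, SE 0.19) passed as lower too. The single gene that passed as higher was Col18a1, at 5.12 (SE 0.18, adjusted p = 1.76e-09), and its second probe set gave 3.67. Col14a1 passed as lower by a smaller difference, at 688.4 to 841.3 in liver and 955.1 to 1404.9 in tibialis (-0.48, SE 0.14, adjusted p = 0.0113). Liver RNA was labelled from about 10 µg and muscle RNA from about 5 µg.

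Against tibialis, gastrocnemius at 3 months had 12 of 21 tested collagen genes lower and 1 higher, where 14.8% of all probe sets were lower and 12.2% higher. Col1a1 was at 731.2 to 2042.2 in gastrocnemius and 3937.5 to 6935.4 in tibialis (-1.86, SE 0.28, limma adjusted p = 0.00157). Col3a1 (-1.47, SE 0.16, adjusted p = 3.82e-04), Col6a2 (-1.40, SE 0.16, adjusted p = 4.24e-04) and Col15a1 (-1.22, SE 0.24, adjusted p = 0.00476) also passed as lower. Of the type IV chains, Col4a1 passed at -0.93 (SE 0.17, adjusted p = 0.00355), while its second probe set gave -0.19 (SE 0.16, adjusted p = 0.403) and Col4a2 -0.33 (SE 0.16, adjusted p = 0.149). The gene that was higher was again Col18a1 (2.15, SE 0.48, adjusted p = 0.00892). Without the 3 liver-high wild-type arrays, Col18a1 (1.03, adjusted p = 0.0671) and Col14a1 (-0.72, adjusted p = 0.0562) no longer passed. With the hepatocyte mean as a covariate no collagen passed, and Col18a1 was at -1.49. That mean was 7.56 to 7.8 in tibialis and 11.23 to 15.27 in gastrocnemius, so covariate and tissue cannot be told apart well and this fit decides nothing.

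Between wild-type gastrocnemius at 8 and at 3 months, 11 of 22 tested collagen genes were higher at 8 months and none lower, where 3.6% of all probe sets were higher and 2.59% lower. They were 5 fibrillar genes (Col1a1, Col1a2, Col3a1, Col5a1 and Col5a2), Col4a1, Col4a2 and Col15a1, and all 3 type VI chains. Col1a2 was at 11852.9, 16786.9, 15778.1, 8126.7 and 13886.3 at 8 months and at 5046.3 to 6615.2 at 3 months (1.21, SE 0.19, limma adjusted p = 0.00502). Col3a1 was at 6268.9 to 14686.6 against 3337.4 to 5347.2 (1.29, SE 0.23, adjusted p = 0.0094), and Col6a3 at 2022.7 to 3732.5 against 952.5 to 1627.2 (1.07, SE 0.19, adjusted p = 0.0105). The fibrillar median was 1.12, beside 0.08 over all probe sets. The hepatocyte sum differed in the same groups, at 48942 to 652640 at 3 months and 14864 to 30845 at 8 months. None of the 11 genes passed without the liver-high arrays (Col1a2 0.92 with adjusted p = 0.211, Col3a1 0.91 with 0.27) or with the hepatocyte mean as a covariate (1.21 with 0.294, and 1.0 with 0.414), and 5 to 12 collagen genes passed when any 1 array was left out. The hepatocyte mean was 8.81 to 10.51 at 8 months and 11.23 to 15.27 at 3 months, so the covariate and age cannot be told apart well. The second probe sets of Col1a1 (1.47, adjusted p = 0.0688), Col5a1 (0.45, adjusted p = 0.136), Col5a2 (0.83, adjusted p = 0.0671) and Col6a2 (0.39, adjusted p = 0.191) were higher at 8 months without passing.

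**Figure D5:**
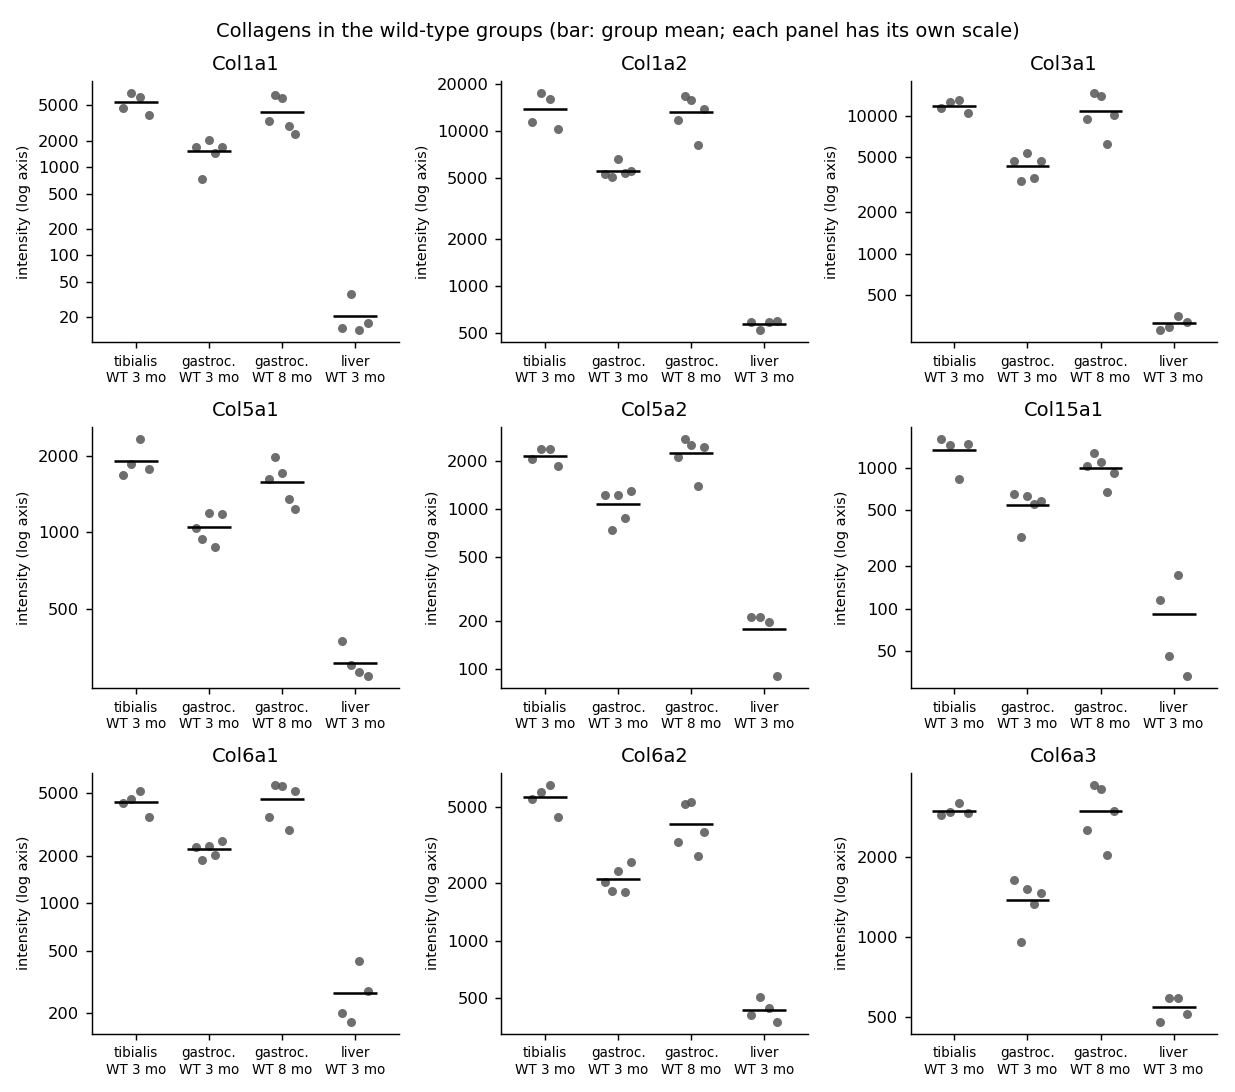
Intensity of 9 collagen genes in each array of the 4 wild-type groups, 1 gene per panel on its own log axis, with a bar at each group mean. In every panel the 3-month gastrocnemius mean lies below the tibialis mean and the 8-month gastrocnemius mean, and liver lies lowest.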

How the data were processed

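Measured was RNA of anterior tibialis, medial gastrocnemius and liver on 34 Affymetrix arrays, extracted with TRIzol and RNeasy per the labels' protocols. The deposited values are intensity per probe set on a linear scale, scaled by the authors so that the mean after trimming 2% at each end was 999.878 to 999.914 in each array, as read from the values. The software that summarised the probes: not given in the sources used here. Array medians ran from 296.4 to 440.3, and arrays of a group correlated at 0.901 to 0.98; with 3 to 5 arrays per group, their number limits the precision.

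Values were taken as log2(intensity + 50) without further normalization. limma 3.58.1 (lmFit, eBayes; R 4.3.3) was run separately for each comparison, using the arrays of its groups. Left out were 64 control probe sets and the dimmest, whose mean log2 value lay under the 40th percentile, and p-values were adjusted by Benjamini-Hochberg over the 13576 left. This filter is not a detection call. There were 4 mutant comparisons, 3 wild-type comparisons and 3 differences of effects. On simulated data with 200 changed probe sets, the fits recovered 48% to 69% of 2-fold changes in the 4 mutant comparisons. The simulated noise was independent between probe sets, without factors shared by an array such as liver transcripts. Changes smaller than 2-fold were not simulated, so recovery of such changes is unknown. Symbols came from the platform annotation (20393 probe sets with 1 symbol, 691 with several, 1606 with none). Of 160 genes in 7 pathway and 11 marker lists, 137 matched by symbol, 1 by an older symbol and 22 not, and 11 of the hepatocyte genes matched.

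Described are every Col1, Col3, Col4, Col5, Col6, Col15 and Col18 gene that was tested, other collagens that passed in a mutant comparison or difference, and the 5 brightest others in wild-type tibialis, gastrocnemius or liver; pathway genes that passed or had the smallest p; and further probe sets that differed in call. Col9a1 was added after its values were seen. Members, lists and the arrays called high in liver transcripts were chosen with earlier results of these data known. Alternatives were pseudocounts of 1 and 200, quantile normalization, scaling to a common median, no filter or the 60th percentile, trended and robust eBayes, array weights, 1 probe set per gene, all arrays in one fit, and each array left out. For the gastrocnemius comparisons the hepatocyte mean as a covariate and leaving out the 6 arrays high in liver transcripts for their age were added; in the wild-type comparisons and the differences these, and leaving out each array in the differences, were chosen after seeing the data, as were all alternatives for pathway and marker genes. Figures were drawn with matplotlib.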

Additional observations from a re-analysis of the deposited data

Results flagged for a closer look

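In 13 of 147 pairs of gene and group with 4 or 5 arrays, 1 array stood far from the others of its group, its gap to the nearest divided by the range of the group being above Dixon's 95% critical value for 4 or 5 arrays. Chance gives about 1 in 20 groups. Most of them were in wild-type liver. Replicate 2 there had Col1a1 at 36.5 (the other 3 at 14.2 to 17.2), Col1a2 at 517.2 (582.3 to 594.8), Col4a3 at 204.1 (135.4 to 146.9) and Col4a6 at 392.6 (264.4 to 279.2). Replicate 3 had Col4a2 at 334.3 (557.8 to 596.2), and replicate 4 had Col5a2 at 90.3 (196.8 to 211.2) and Col12a1 at 471.3 (405.3 to 413.1). In knockout liver, replicate 1 was high for Col3a1 at 534.4 (203.7 to 253.9) and for Col15a1 at 154.2 (31.4 to 45.7).

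In muscle, wild-type gastrocnemius replicate 2 at 3 months had Col4a6 at 749.5 (441.6 to 493.9). GSL30 replicate 2 was high for Col6a1 at 3926.8 (2858.2 to 3113.3) and for Col6a3 at 3456.6 (2209.3 to 2522.6). Knockout tibialis replicate 3 had Col6a2 at 6885.7 (5371.1 to 5541).

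The GSL30 effect differed from the knockout effect in gastrocnemius for Col4a1, by -1.07, and for Col4a2, by -1.13, each past the threshold in limma.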

How the results depend on the processing

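No collagen passed under any of 18 alternatives in knockout tibialis or in knockout liver. In knockout gastrocnemius none passed under 19 of 20, and 1 passed, Col18a1, with all 34 arrays in one fit. The GSL30 calls of Col4a1 and Col4a2 held when any 1 array was left out, but 0 collagens passed in GSL30 with the hepatocyte mean as a covariate, and 0 without the arrays high in liver transcripts for their age. Without those arrays 0 also passed for GSL30 minus knockout and 0 for 8 against 3 months. With the covariate 0 passed for gastrocnemius against tibialis and 0 for 8 against 3 months. In those comparisons and in GSL30 the covariate did not overlap between the groups. Covariate and group therefore cannot be told apart well, and calls lost or signs reversed with it decide nothing. Leaving out 1 array gave 5 to 12 calls in the age comparison. The cause of these changes was not tested.

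Medians over a type moved as follows. With the covariate, the GSL30 medians were 0.06 (fibrillar), 0.01 (basement membrane) and 0.25 (other). Those of gastrocnemius against tibialis were -0.37, 0.1 and -0.42, with the sign reversed for Col4a1 (0.05), Col5a2 (0.03) and Col18a1 (-1.49). For 8 against 3 months they were 0.67 (fibrillar) and 0.47 (other), and the fibrillar median was 0.76 without the liver-high arrays. The basement membrane median in knockout tibialis was 0.26 at a common median, 0.25 at a pseudocount of 200 and 0.26 to 0.35 with 1 array left out. In knockout gastrocnemius it was 0.14 without the liver-high arrays and -0.23 to 0.16 with 1 array left out. The fibrillar median in knockout liver was -0.08 to 0.11 with 1 array left out.

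For gastrocnemius against tibialis, the basement membrane median was -0.17 and the other median -0.36 under quantile normalization, and the former -0.19 at a common median. For liver against tibialis, these medians were -0.74 and -0.2 under quantile normalization and -0.72 and -0.2 at a common median. The fibrillar, basement membrane and other medians there were -4.12, -1.36 and -0.47 at a pseudocount of 1 and -3.41, -0.61 and -0.25 at 200. With 1 array left out, they were -1 to -0.83 (basement membrane) and -0.47 to -0.29 (other). For 8 against 3 months the other median was 0.35 at a pseudocount of 1. Of all values for type medians and counts of calls, 597 stayed within 1 SD of the arrays for a median or within 1.5 times for a count, and 46 moved further. Of the values for single collagen, pathway and marker genes, 5793 kept their direction and call or, where uncalled, stayed within 1 SD. There, 37 moved further, 233 lost a call, 55 gained one and 3 reversed.

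A common median moved the median of all probe sets from -0.05 to -0.18 for gastrocnemius against tibialis, and from -0.18 to -0.01 for liver against tibialis. No paired analysis was possible because the labels give no replicate number that ties arrays of different groups. The deposited values carry no background measure, so how far a dim collagen lies above background is unknown.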
